A study of Mus musculus with 7 samples.

Results

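The 5C-Oct4GFP+ (naïve) library was compared with the library of its starting cells, 5C-Oct4GFP+, across every gene of the expression tables. Both belong to a series of 7 RNA-Seq libraries with 1 library for each kind of cell. The comparison therefore holds 2 libraries, with no replicates and no estimate of the spread between cultures. Of 29267 genes in the tables, 11233 reached a TPM of 5 in 1 or both libraries, and these were tested against a 2-fold limit. TPM is the abundance of a transcript corrected for its length and scaled to the same sum in each library.

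5C-Oct4GFP+ cells were made from OG2 mouse embryonic fibroblasts, which carry a GFP transgene driven by an Oct4 promoter fragment that is active in pluripotent cells. The fibroblasts were infected with retroviruses for Oct4, Sox2, Klf4 and c-Myc and cultured in 5C medium, which holds N2, bFGF, β-mercaptoethanol, vitamin C and LIF and no serum. GFP-positive cells were then sorted by FACS, at 0 passages per the labels. 5C-Oct4GFP+ (naïve) cells are the same cells after culture in naïve medium, which keeps LIF, N2 and vitamin C, leaves out bFGF and adds B27, the GSK3 inhibitor CHIR99021 and the MEK inhibitor PD0325901. The labels give 20 passages for this library, and the study describes a first culture of days and passaging after it. The medium, the time in culture, the passages and the sort cannot be told apart. Transcripts of the retroviral factors and of the endogenous genes also cannot be told apart in these tables. For reference, values are given from 3 further libraries of pluripotent cells. mES-Oct4GFP+ cells were made from the same fibroblasts with the same factors in serum medium with LIF and sorted at 0 passages. The ERK and Wnt target genes of this library lay close to those of the naïve library although its listed medium holds neither inhibitor. What goes with this likeness, the label and the medium included, was not tested. The values stand here for the library labelled mES-Oct4GFP+. 5C-Oct4GFP+ (primed) cells had the same start and 20 passages in primed medium. R1 ESCs-primed are an embryonic stem cell line at 20 passages that was primed on feeder cells and, per the study's methods, then kept with CHIR99021 and the Wnt inhibitor IWR-1 in place of bFGF and activin. Values of 5C-Oct4GFP- cells, the GFP-negative cells of the 5C cultures, are given where a few of them left in the sorted sample could matter.

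Naïve pluripotent cells resemble the epiblast of the blastocyst before implantation, and primed cells the epiblast after implantation. FGF acting through MEK and ERK moves mouse cells out of the naïve state. Inhibition of MEK blocks that signal, and inhibition of GSK3 stabilises β-catenin, which relieves repression by TCF factors and activates Wnt target genes. LIF acts through STAT3 and sustains the naïve factors. With both inhibitors, mouse embryonic stem cells are known to lower the de novo DNA methyltransferases and to lose DNA methylation, and many germline genes are held silent by promoter methylation.

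Both libraries carry fibroblast as their cell type in the labels, after the cells of origin, but their markers were those of pluripotent cells. Pou5f1, the gene of OCT4, was at 1698.29 TPM in the naïve library and 2428.76 TPM in the starting library, and Esrrb was at 206.62 and 229.65 TPM. Col1a1, the main fibroblast collagen, was at 1.63 TPM in the naïve library and 1.5 TPM in the starting library, against 44.96 TPM in 5C-Oct4GFP- cells. Of 30 fibroblast markers 19 were below a TPM of 5 in both libraries, and the list summed to 338.32 TPM in the naïve and 456.99 TPM in the starting library, with 5 and 1 markers without reads. The same list summed to 2191.38 TPM in 5C-Oct4GFP- cells. Expected counts (the number of reads RSEM assigned) totalled 8233480 in the naïve library and 10443952 in the starting library, within the range of 6108252 to 11496615 of the series.

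At the 2-fold limit, a difference of 1 on the log2(TPM + 1) scale, 962 genes were higher in the naïve library (8.56% of those tested) and 1800 were lower (16.0%). The remaining 8471 genes (75.4%) lay between the limits, and the median difference of all tested genes was -0.08. By at least 2 log2 units 676 genes were lower and 346 higher, and at 4 log2 units the numbers were 61 and 45. No read at all was found in the starting library for 41 of the higher genes, and none in the naïve library for 52 of the lower genes. Below, a gene is said to have risen or fallen where its difference passed this limit, which describes 1 library against 1 library. Ratios are ratios of TPM, and their exact 95% intervals come from the read counts and cover the sampling of reads only.

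**Figure D1:**
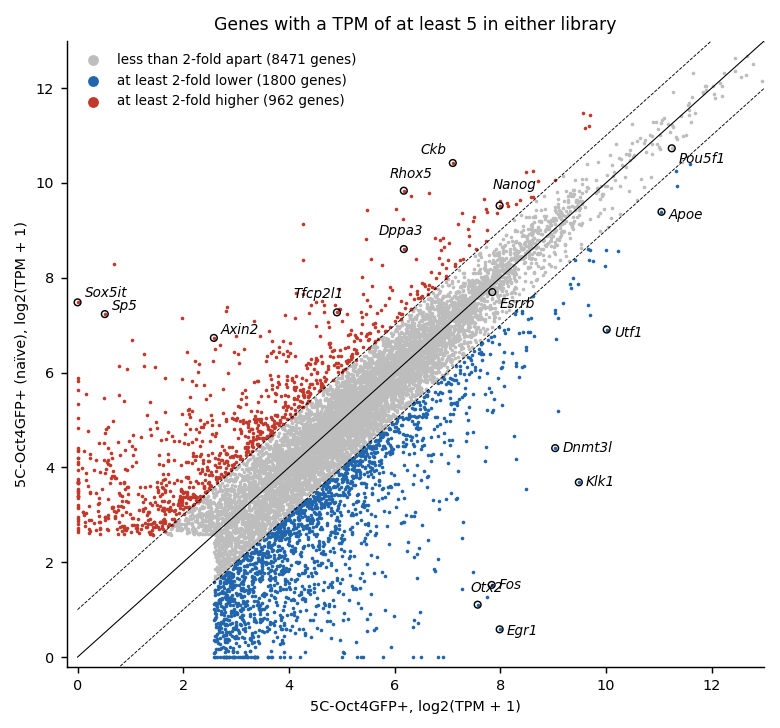
Each point is 1 of the 11233 tested genes, with log2(TPM + 1) in 5C-Oct4GFP+ on the horizontal axis and in 5C-Oct4GFP+ (naïve) on the vertical axis. The solid line marks equal values and the dashed lines the 2-fold limits, with 962 genes above and 1800 below, and circles mark genes named in the text. Egr1, Fos and Otx2 lie at the lower right, Sox5it, Sp5 and Axin2 at the upper left, and Pou5f1 and Esrrb between the limits.

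Most immediate early genes were lower in the naïve library. These are transcription factors and regulators that growth factor signals switch on within minutes, largely through ERK. Of 25 listed genes 22 were tested, of which 20 fell and none rose, with a median difference of -2.97. Egr1, a zinc finger factor induced by ERK through SRF, was at 253.14 TPM in 5C-Oct4GFP+, 0.50 TPM in 5C-Oct4GFP+ (naïve), 0.32 TPM in mES-Oct4GFP+ cells, 83.78 TPM in 5C-Oct4GFP+ (primed) and 64.88 TPM in R1 ESCs-primed. It was 506-fold lower in the naïve library than in the starting cells (95% interval 245 to 1260), the largest fall on the log2 scale of all tested genes. The primed libraries sat between the starting cells and the naïve library.

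Fos, a subunit of the AP-1 factor, was at 227.84 TPM in the starting library and 1.87 TPM in the naïve library, a 122-fold difference (61.7 to 282). Jun, its partner, was at 108.01 and 2.51 TPM, 43.0-fold lower (31.1 to 61.2). Zfp36, which speeds the decay of short-lived mRNAs, was at 112.41 and 3.20 TPM, 35.1-fold lower (23.8 to 54.0). Fos stood at only 9.05 TPM in 5C-Oct4GFP+ (primed) and 6.37 TPM in R1 ESCs-primed, so that of the 5 libraries of pluripotent cells only the starting library was high. Mcl1, a survival factor, and Klf10, a TGFβ-induced repressor, were the 2 tested members between the limits, at -0.53 and -0.01.

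The immediate early genes were also high in the GFP-negative cells of the same cultures. Egr1 was at 567.66 TPM and Fos at 820.89 TPM in 5C-Oct4GFP- cells, and the whole list summed to 5707.22 TPM there, 2768.74 TPM in the starting library and 547.73 TPM in the naïve library. In mES-Oct4GFP+ cells, which were also sorted, it summed to 575.51 TPM. The part that the sort and residual GFP-negative cells have in the fall was not tested.

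The feedback regulators that ERK induces against itself moved less evenly. Of 31 tested genes 18 fell and 1 rose, with a median of -1.07. Dusp4, a nuclear ERK phosphatase, was at 37.77 TPM in the starting and 0.24 TPM in the naïve library, 157-fold lower (54.0 to 771). Dusp6, the cytoplasmic ERK phosphatase, was at 73.72 and 7.0 TPM, 10.5-fold lower (8.5 to 13.2). Both were high in the primed states, Dusp6 at 135.31 TPM in 5C-Oct4GFP+ (primed) and 125.25 TPM in R1 ESCs-primed.

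Among the Sprouty proteins, inhibitors that act between receptor and RAF, Spry4 was 11.7-fold lower (8.52 to 16.5) and Spry1 6.28-fold lower (4.75 to 8.42). Spry2, at 72.71 against 106.57 TPM, stayed between the limits. The ETS factors that FGF induces sat at the limit itself: Etv5 was at 191.57 against 382.97 TPM, 2.0-fold lower (1.92 to 2.08), and Etv4 was 2.06-fold lower (1.74 to 2.45). Dusp14, another phosphatase of the family, was the 1 member that rose, from 10.80 to 74.61 TPM. Of the FGF ligands and receptors, 6 of 11 tested fell and 2 rose, with a median of -1.05. Fgf4, the FGF of the inner cell mass, was 2.08-fold lower (1.95 to 2.21) at 95.72 against 198.80 TPM. Fgfr1, the main receptor of these cells, was at 71.96 and 60.37 TPM, between the limits.

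Several Wnt target genes rose from near 0. Sp5, a zinc finger factor directly activated by β-catenin and TCF, was at 0.43 TPM in 5C-Oct4GFP+, 149.57 TPM in 5C-Oct4GFP+ (naïve), 116.50 TPM in mES-Oct4GFP+ cells, 13.25 TPM in 5C-Oct4GFP+ (primed) and 28.86 TPM in R1 ESCs-primed. It was 348-fold higher in the naïve library than in the starting cells (148 to 1068), on 5 reads in the latter. Axin2, the negative feedback component that most Wnt-responsive cells induce, was at 4.98 TPM in the starting library and 105.27 TPM in the naïve library, 21.1-fold higher (17.3 to 26.2). The starting library and the GFP-negative cells were alike in Axin2, at 4.98 and 5.00 TPM.

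The promoter of Sp5 is shown because it holds the core letters of a TCF site, CTTTGAT, in capitals. The stretch is the 160 bases before the most upstream RefSeq start, at chr2:70474763-70474922 on the plus strand of GRCm38.p6, and the match begins 104 bases before the start.
Sp5: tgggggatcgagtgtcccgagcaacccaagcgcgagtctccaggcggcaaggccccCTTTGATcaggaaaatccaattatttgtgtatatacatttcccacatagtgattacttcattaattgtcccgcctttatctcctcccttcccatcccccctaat
In windows of 300 bases around the start, CTTTGAT or CTTTGAA on either strand was found for 2 of 8 Wnt targets that rose and had a promoter entry, Sp5 and T, for 7.98% of all genes that rose and for 5.78% of all tested genes with an entry. These letters are a description of the window and do not show a bound site.

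Of 29 tested genes of the Wnt list 9 rose and 5 fell, with a median of 0.39. Cdx1, a caudal homeobox factor of the posterior body, was 94.9-fold higher (45.7 to 237) at 69.31 against 0.73 TPM. Cdx2, its relative, had no read in the starting library and 16.26 TPM in the naïve library, at least 67.7-fold higher against a floor of 3 reads. T (brachyury), the primitive streak factor, was at 14.49 against 0.24 TPM, yet stood at 155.31 TPM in 5C-Oct4GFP+ (primed) and 374.06 TPM in R1 ESCs-primed. Cdx1, by contrast, was at most 0.62 TPM in the primed libraries. Fzd10, a Wnt receptor, and Tnfrsf19, a receptor of the TNF family, also rose, to 74.90 and 22.56 TPM.

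The machinery of the pathway itself differed little. Ctnnb1 (β-catenin) was at 537.57 and 483.23 TPM, Tcf7l1, the TCF that represses naïve genes, at 92.21 and 96.71 TPM, and Gsk3b at 23.86 and 26.93 TPM. Lef1, which is itself often a target, was at 45.66 and 31.22 TPM. The members that fell were led by Fzd7, the main Frizzled receptor of pluripotent cells, at 2.18 against 85.01 TPM, 39.0-fold lower (29.1 to 53.3), and by Ccnd2, cyclin D2, 11.4-fold lower (7.54 to 18.4). Of 32 genes of early mesendoderm 21 were below a TPM of 5 in both libraries. Of the 11 tested 7 rose, against 8.56% of all tested genes, with a median of 2.06. Among the risers 4 are the Wnt targets Sp5, Cdx1, Cdx2 and T already described. Of the 2 compared libraries these 4 reached a TPM of 5 in the naïve library only, so the count and median depend on that limit. At a TPM limit of 20, 2 members rose. Eomes, the T-box factor of the primitive streak, fell from 7.49 to 0.97 TPM.

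**Figure D2:**
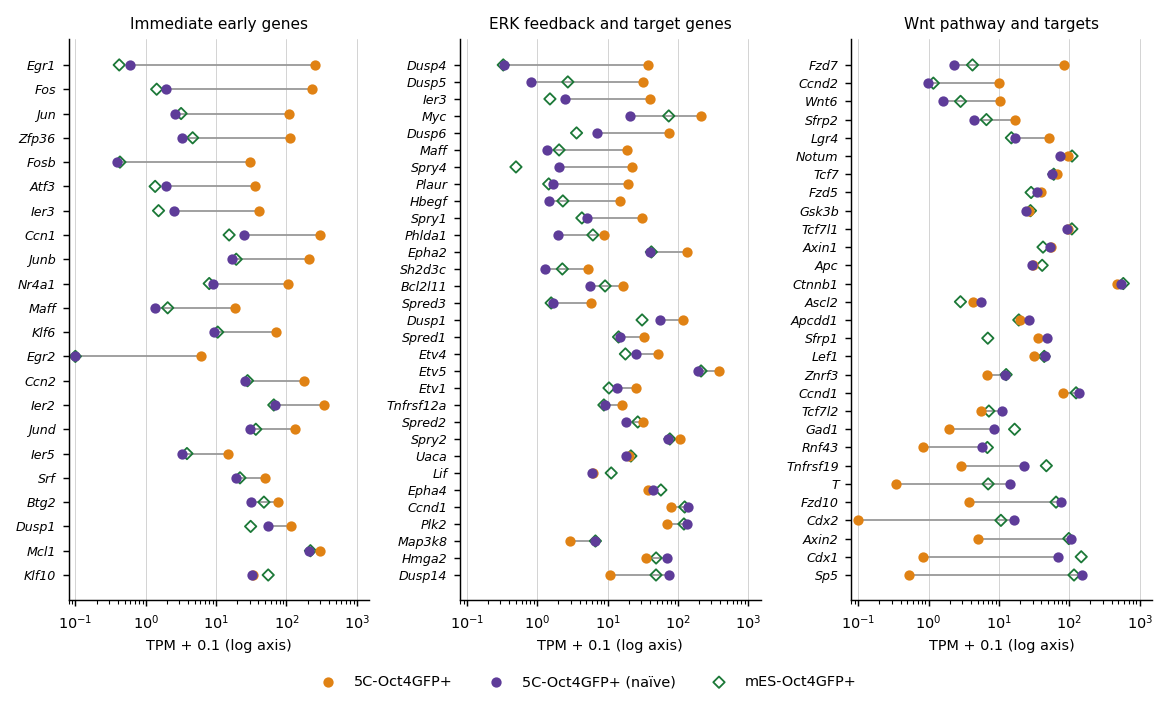
TPM + 0.1 on a log axis for every tested gene of 3 lists, in 5C-Oct4GFP+ (orange), 5C-Oct4GFP+ (naïve) (purple) and mES-Oct4GFP+ (open green diamonds), with 1 library each and genes ordered by the difference. In the first panel 20 of 22 purple points lie at least 2-fold to the left of the orange points, and in the third panel the 9 genes at the bottom lie at least 2-fold to the right. The diamonds lie nearer the purple than the orange point for Egr1 at 0.32 TPM and for Sp5 at 116.50 TPM.

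The library labelled mES-Oct4GFP+ was close to the naïve library in both signalling groups although its listed medium holds serum and neither inhibitor. Beside the values of Egr1 and Sp5 above, Fos was at 1.33 TPM, Axin2 at 98.28 TPM and Cdx1 at 147.59 TPM in mES-Oct4GFP+ cells. Neither medium holds bFGF, which the 5C medium does. What goes with the shared profile was not tested.

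Most transcription factors of formative and primed cells fell. Of 22 tested 16 fell and 2 rose, with a median of -2.04. Otx2, which directs the exit from the naïve state, was at 189.42 TPM in 5C-Oct4GFP+, 1.15 TPM in 5C-Oct4GFP+ (naïve), 0.41 TPM in mES-Oct4GFP+ cells, 214.48 TPM in 5C-Oct4GFP+ (primed) and 134.39 TPM in R1 ESCs-primed. It was 165-fold lower in the naïve library than in the starting cells (94.2 to 320). The starting cells stood between the 2 primed libraries for Otx2, and 5C-Oct4GFP- cells, at 26.48 TPM, stood below them.

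Pou3f1, the POU factor of the post-implantation epiblast, was at 32.10 TPM in the starting and 0.90 TPM in the naïve library, 35.7-fold lower (21.9 to 63.0). Tcf15, a bHLH factor of cells about to leave the naïve state, was at 85.00 and 3.50 TPM, 24.3-fold lower (14.6 to 43.7), and reached only 5.26 TPM in 5C-Oct4GFP+ (primed) and 16.06 TPM in R1 ESCs-primed. Zic2, a zinc finger factor of the epiblast, was 4.26-fold lower (3.72 to 4.90). Foxd3, needed for that exit, was 5.46-fold lower (4.63 to 6.47). Tfap2a and Sall3 were the members that rose, to 6.4 and 7.43 TPM.

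Primed markers outside the transcription factors went the same way, with 14 of 21 tested fallen and 2 risen and a median of -1.75. Enpp3, an ectoenzyme, was at 1.39 against 214.59 TPM, 154-fold lower (97.5 to 261), and Car4, a carbonic anhydrase on the cell surface, had no read in the naïve library against 80.44 TPM, at least 81.5-fold lower. Fgf5, the classical primed marker, was already low in the starting cells at 11.69 TPM and had 1 read (0.09 TPM) in the naïve library, against 174.67 TPM in 5C-Oct4GFP+ (primed). Nodal was at 34.45 and 40.29 TPM and Lefty2, its antagonist, at 31.04 and 58.06 TPM, both between the limits. Cd24a and Nkx1-2 rose.

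The naïve transcription factors were mostly present before the medium was changed. Of 16 tested 12 lay between the limits, as did 75.4% of all tested genes, 2 rose and 2 fell, with a median of 0.31. Tfcp2l1, the factor downstream of LIF and STAT3, was at 29.05 TPM in 5C-Oct4GFP+, 153.37 TPM in 5C-Oct4GFP+ (naïve), 194.10 TPM in mES-Oct4GFP+ cells, 0.54 TPM in 5C-Oct4GFP+ (primed) and 0.82 TPM in R1 ESCs-primed, a 5.28-fold rise (4.99 to 5.59). Nanog, the homeodomain factor at the centre of the network, was at 734.76 against 252.93 TPM, 2.90-fold higher (2.79 to 3.03). Esrrb, Klf2, Klf5, Nr5a2 and Gbx2, all naïve factors, differed by between -0.15 and 0.22, and each stood under 18 TPM in both primed libraries.

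Tbx3 and Tfap2c reached 0.96 and 0.97, just inside the limit, and passed it in FPKM and in CPM (counts scaled by the library total alone), where 4 factors of the list rose. Klf4, 1 of the infected factors, was at 152.35 against 521.92 TPM, 3.43-fold lower (3.26 to 3.60), and c-Myc at 20.62 against 211.49 TPM, 10.3-fold lower (8.68 to 12.2). In 5C-Oct4GFP- cells Klf4 was at 1511.72 TPM and Myc at 1622.18 TPM, and the parts of the viral transcripts and of such cells in both falls were not tested. The other infected factors differed less, Pou5f1 by -0.52 and Sox2 by -0.73. Nr0b1 (Dax1), a nuclear receptor of the naïve network, also fell, from 135.50 to 57.23 TPM.

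The general pluripotency genes split as well. Of 19 tested 13 lay between the limits, against 75.4% of all tested genes, 5 fell and Nanog rose, with a median of -0.38. Utf1, a chromatin protein of embryonic stem cells, was at 119.09 against 1033.62 TPM, 8.68-fold lower (8.01 to 9.42), and Phc1, a polycomb subunit, at 35.50 against 543.82 TPM, 15.3-fold lower (14.1 to 16.7). Both were lower in 5C-Oct4GFP- cells than in the starting cells, at 99.91 and 139.67 TPM, and both were high in 5C-Oct4GFP+ (primed), at 527.53 and 413.37 TPM. Tdgf1 (Cripto), the Nodal co-receptor, was 3.05-fold lower (2.90 to 3.20). Zfp42 (Rex1), Dppa5a and Tdh, markers of embryonic stem cells, lay between the limits at 0.69, -0.38 and 0.05.

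Surface and oocyte or embryo markers of the naïve state rose in 5 of 21 tested and fell in 4, with a median of 0.11. Of all tested genes 8.56% rose and 16.0% fell. The members that fell were Dnmt3l, with the largest difference of the list at -4.63, Dppa4, at 68.18 against 259.66 TPM, Ooep and Fgf4. Alpl, the alkaline phosphatase used to stain stem cell colonies, was at 308.30 against 52.93 TPM, 5.82-fold higher (5.38 to 6.31). Dppa3 (Stella), which protects maternal DNA from demethylation and whose loss marks primed cells, was at 388.48 against 71.25 TPM, 5.45-fold higher (4.82 to 6.19), and at 0.21 TPM in 5C-Oct4GFP+ (primed). Tcl1, an AKT co-activator, Icam1 and Cd9, both surface proteins, rose by less, by 1.56, 1.30 and 1.12. Pecam1 was at 53.22 and 28.58 TPM, between the limits. Of 12 genes the study named for the states, 9 fell, Dppa3 rose, and Tbx3 and Pecam1 lay between. That list was picked on these libraries, so its counts are not independent of them.

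**Figure D3:**
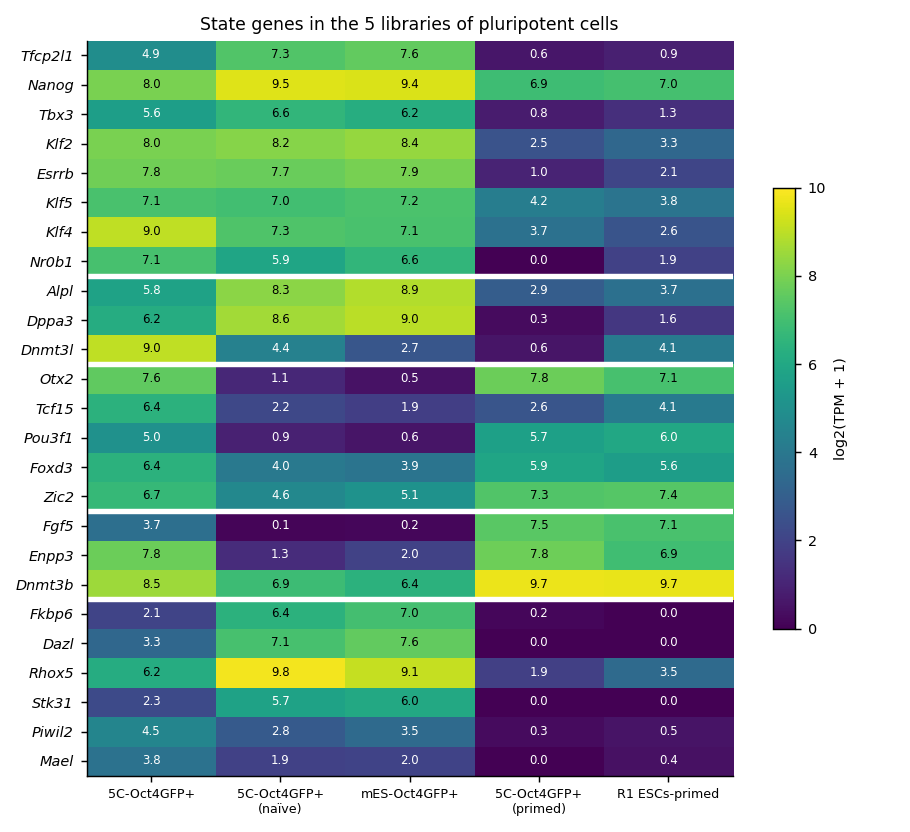
log2(TPM + 1), by colour from 0 to 10 and as a number, for naïve factors, naïve surface and embryo markers, formative and primed factors, primed markers and germline genes (from top to bottom, separated by white lines) in 5 libraries, 1 for each kind of cell. Esrrb, Klf2 and Klf5 have like values in the first 3 columns and low ones in the primed columns, while Otx2 is at 7.6 in 5C-Oct4GFP+ and at most 1.1 in the naïve and mES-Oct4GFP+ columns. Dnmt3l is at 9.0 in 5C-Oct4GFP+ and at most 4.4 in every other column.

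The de novo DNA methylation enzymes fell together. Dnmt3l, the catalytically inactive cofactor of DNMT3A and DNMT3B, was at 525.34 TPM in 5C-Oct4GFP+, 20.21 TPM in 5C-Oct4GFP+ (naïve), 5.31 TPM in mES-Oct4GFP+ cells, 0.47 TPM in 5C-Oct4GFP+ (primed) and 16.03 TPM in R1 ESCs-primed. It was 26.0-fold lower in the naïve library (22.1 to 30.7), and at 1.04 TPM in 5C-Oct4GFP- cells, so that the starting library stood above all others. Dnmt3a was at 12.95 against 97.06 TPM, 7.49-fold lower (6.57 to 8.58), and Dnmt3b at 114.87 against 366.39 TPM, 3.19-fold lower (3.04 to 3.35). Unlike Dnmt3l, these enzymes were high in the primed libraries, Dnmt3b at 843.89 and 822.53 TPM.

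The maintenance enzymes did not pass the limit. Dnmt1, which copies methylation at replication, was at 142.82 and 149.75 TPM, and Uhrf1, which recruits it, at 356.62 and 315.44 TPM. Tet1, which oxidises methylcytosine, was 3.05-fold lower (2.92 to 3.19) at 43.11 against 131.58 TPM, and Tet2 sat just inside the limit, at 7.44 against 15.87 TPM. Prdm14, which represses Dnmt3b in naïve cells, was at 34.93 and 20.46 TPM. Of 19 tested genes of the list 6 fell and Dppa3 rose, with a median of -0.12. DNA methylation itself was not measured in these libraries.

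Germline genes that are known to be silenced by promoter methylation rose in 12 of 23 tested and fell in 4, with a median of 1.68. A further 9 of the 32 listed were below a TPM of 5 in both libraries. Dazl, an RNA-binding protein of germ cells, was at 9.10 TPM in 5C-Oct4GFP+, 135.04 TPM in 5C-Oct4GFP+ (naïve) and 191.46 TPM in mES-Oct4GFP+, without a read in either primed library. It was 14.8-fold higher in the naïve library than in the starting cells (12.6 to 17.7). Rhox5, an X-linked homeobox gene, was at 71.26 and 913.34 TPM, 12.8-fold higher (11.3 to 14.6), and was low in 5C-Oct4GFP- cells at 12.88 TPM.

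Fkbp6, a chaperone of the piRNA pathway, was at 3.18 and 85.44 TPM, 26.9-fold higher (17.8 to 42.3), and Stk31, a testis kinase with a Tudor domain, at 3.76 and 52.55 TPM, 14-fold higher (10.6 to 18.8). Hormad1 and Tdrd12, proteins of meiosis and of piRNA, rose less, by 1.84 and 1.68. The list did not move as a block. Mael, Stag3, Piwil2 and Sycp3, all of meiosis or piRNA as well, fell by between 1.18 and 1.86 on the log2 scale. Tex19.1, which is active in naïve cells, was at 126.20 and 126.41 TPM, and Ddx4 (Vasa) at 3.97 and 5.43 TPM.

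The promoters of Fkbp6 and Stk31 are shown because they hold CACGTG, the E-box that the repressor complex of germline genes in embryonic stem cells is known to bind, in capitals. Each stretch is the 160 bases before the most upstream RefSeq start in GRCm38.p6, for Fkbp6 at chr5:135350045-135350204 on the minus strand and for Stk31 at chr6:49395379-49395538 on the plus strand.
Fkbp6: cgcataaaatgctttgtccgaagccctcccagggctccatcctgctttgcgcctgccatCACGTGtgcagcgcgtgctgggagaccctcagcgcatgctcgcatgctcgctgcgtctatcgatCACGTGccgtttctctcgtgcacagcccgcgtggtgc
Stk31: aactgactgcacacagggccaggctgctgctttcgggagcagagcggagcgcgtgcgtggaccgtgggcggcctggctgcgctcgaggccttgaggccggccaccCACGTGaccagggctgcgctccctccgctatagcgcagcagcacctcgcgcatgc
The matches begin 101 and 37 bases before the start in Fkbp6 and 55 bases before it in Stk31. In the 300-base windows CACGTG was found for 7 of 19 tested germline genes with an entry and for 10.9% of all tested genes. It was found for 3 of 12 germline genes that rose and for 3 of 3 that fell. Across all tested genes with an entry, the median ratio of observed to expected CpG was 0.61 for genes that rose, 0.69 for genes that fell and 0.78 overall.

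A second set of genes, from oocyte and germline families, was near 0 in the starting cells. Pramel6 and Pramel7, of a family known from oocytes, embryos and tumours, were at 102.35 against 1.04 TPM and 16.44 against 1.16 TPM. They were the only tested members of their list. Its other members, among them Pramel4, Pramel5 and the Zscan4 genes, were below a TPM of 5 in both libraries. Khdc1c and Khdc1a, KH-domain genes of oocytes, had no read in the starting library and 48.28 and 31.80 TPM in the naïve library, at least 172-fold and 116-fold higher. Magea8, of the cancer-testis family, had 1 read in the starting library and 45.59 TPM in the naïve library. Aurkc, the Aurora kinase of meiosis, was at 69.95 against 1.40 TPM (95% interval of the ratio 23.9 to 125). All of the genes named here as higher were high in mES-Oct4GFP+ cells too, between 27.37 TPM for Magea8 and 254.78 TPM for Aurkc, and at most 0.43 TPM in the primed libraries. The Pramel, Khdc1 and Magea families have near-identical copies, so the way RSEM split reads among them makes their single values uncertain.

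Among imprinted genes and Xist 12 of 26 tested fell and 3 rose, with a median of -0.65. Grb10, H19 and Nnat fell by between 3.39 and 3.64 log2 units, and Meg3 and Rian, noncoding RNAs of the Dlk1-Dio3 locus, were 3.35-fold (3.19 to 3.52) and 3.18-fold (3.04 to 3.33) lower. Plagl1, a zinc finger factor expressed from the paternal copy, was 59.0-fold higher (39.2 to 93.5) at 82.54 against 1.40 TPM. Xist, the RNA that silences an X chromosome in female cells, was at 1.36 TPM in the naïve and 22.21 TPM in the starting library, and at 113.70 TPM in 5C-Oct4GFP- cells. Y-linked genes were present in both libraries, Eif2s3y at 99.60 and 73.75 TPM and Ddx3y at 31.05 and 21.02 TPM. The part of GFP-negative cells in the Xist value of the starting library was not tested.

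LIF pathway genes moved both ways. Of 21 tested genes of the pathway 7 fell and 2 rose, with a median of -0.16. Socs3, the feedback inhibitor and direct STAT3 target, was at 65.67 against 149.08 TPM, 2.27-fold lower (2.09 to 2.47), Junb was 12.6-fold lower (10.6 to 15) and Lifr, the receptor, 2.38-fold lower (2.16 to 2.64). Stat3 itself was at 76.59 and 52.50 TPM and Il6st, the shared receptor chain, at 45.79 and 31.81 TPM. Tfcp2l1 and Il6ra rose.

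Id1, Id2 and Id3, readouts of BMP, fell, while Id4 lay between the limits at -0.91. Id1, a direct SMAD target that blocks bHLH factors, was at 4.51 against 98.22 TPM, 21.8-fold lower (13.8 to 36.5), and Id2 and Id3 were 7.03-fold (5.43 to 9.23) and 2.22-fold (1.89 to 2.62) lower. These 3 were the members that fell of 10 tested in the BMP list, none rose, and the median was -0.54. Id1, Id2 and Id3 were at 390.61, 112.76 and 228.19 TPM in 5C-Oct4GFP- cells. The part of such cells in these falls was not tested. Of 18 tested Nodal and activin genes 15 lay between the limits, as did 75.4% of all tested genes, and 3, Inhbb, Skil and Tdgf1, fell, with a median of -0.25. In the Notch pathway 6 of 12 tested fell, with a median of -1.14, among them Rbpj, the DNA-binding effector, at 65.24 against 183.09 TPM, and none rose.

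Many epithelial genes fell, but not Cdh1, the gene of E-cadherin. Cdh1 was at 249.05 TPM in 5C-Oct4GFP+, 301.93 TPM in 5C-Oct4GFP+ (naïve), 294.61 TPM in mES-Oct4GFP+ cells, 283.66 TPM in 5C-Oct4GFP+ (primed) and 185.06 TPM in R1 ESCs-primed. Of 32 tested genes of epithelial adhesion and junctions 17 fell and 2 rose, with a median of -1.24. Esrp1, the epithelial splicing regulator, was at 0.92 against 88.54 TPM, 96.2-fold lower (59.2 to 169), Cldn7 24.7-fold lower (14.8 to 44.5) and Rab25 17.2-fold lower (10.5 to 30.3). Elf3 and Dsg2 rose, and Epcam stood just inside the limit at 203.76 against 404.15 TPM.

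All 5 tested keratins fell, with a median of -2.18. Krt17 had no read in the naïve library against 120.56 TPM, at least 281-fold lower, and Krt18 was at 0.48 against 48.19 TPM, 100-fold lower (34.2 to 490). Krt17 was at 138.79 TPM in 5C-Oct4GFP- cells and at most 1.83 TPM in the primed libraries, whereas Krt18 was at 361.21 TPM in 5C-Oct4GFP+ (primed). The summed keratin level was 21.97 TPM in the naïve library, 257.03 TPM in the starting library and 688.73 TPM in 5C-Oct4GFP- cells.

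Mesenchymal genes were also more often lower, with 8 of 20 tested fallen and 1 risen and a median of -0.35. Cdh2 (N-cadherin) was the riser, at 5.38 against 1.65 TPM, far from the 81.72 TPM of 5C-Oct4GFP+ (primed). Vim was at 636.82 and 333.24 TPM and Fn1 at 431.55 and 522.65 TPM, both between the limits. Genes of contractile fibres and of TGFβ and YAP output fell in 20 of 25 tested, with a median of -1.87. Ccn1 and Ccn2, secreted YAP targets, were 12.4-fold (10.9 to 14.3) and 6.89-fold (6.08 to 7.82) lower, and Tagln2, an actin-binding protein, 4.78-fold lower (4.24 to 5.4).

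All 7 tested collagen chains fell, led by Col4a1 of the basement membrane at 0.94 against 25.62 TPM, 27.3-fold lower (18.9 to 41.0), with a median of -2.10. The collagen list summed to 65.39 TPM in the naïve, 236.62 TPM in the starting library and 1029.11 TPM in 5C-Oct4GFP- cells. S100 proteins and annexins fell in 13 of 18 tested, with a median of -1.58. Anxa2, a calcium-dependent membrane protein, was at 4.69 against 153.07 TPM, 32.6-fold lower (22.2 to 50.2), with 756.57 TPM in 5C-Oct4GFP- cells. Of the 11 fibroblast markers tested 8 fell and 2, Ddr2 and Lum, rose, while Col1a1, Col1a2, Col3a1 and Prrx1 were at most 2.0 TPM in both libraries and not tested. The part of residual GFP-negative cells in these falls was not tested.

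Markers of other cell types were present in part. The 12 macrophage and blood markers summed to 99.62 TPM in the naïve and 153.12 TPM in the starting library, nearly all of it Laptm5 and Cd68, of which Cd68 fell, while Csf1r, Lyz2 and Tyrobp had no read in either. The 12 endothelial markers summed to 96.88 and 142.00 TPM. Of 4 tested 2 fell, the receptor Tek to 4.06 from 22.66 TPM and Vwf, von Willebrand factor, to 5.93 from 25.47 TPM. Egfl7 and Eng lay between the limits, at 42.32 and 42.84 TPM in the naïve library. Emcn had no read in either library, and Cdh5 was at 0 and 0.22 TPM. Of the primitive endoderm genes 5 of 9 tested fell, 1 of them Apoe, and of the trophoblast genes 5 of 11 fell and 2, Cdx2 and Tfap2a, rose.

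Many glycolytic genes fell, and nearly all respiratory chain genes lay between the limits. Of 28 tested genes of glycolysis and of glucose or lactate transport 13 fell and 3 rose, with a median of -0.90. Slc16a3 (MCT4), which exports lactate, was at 154.19 TPM in 5C-Oct4GFP+, 1.72 TPM in 5C-Oct4GFP+ (naïve), 2.22 TPM in mES-Oct4GFP+ cells, 146.37 TPM in 5C-Oct4GFP+ (primed) and 188.47 TPM in R1 ESCs-primed, 89.6-fold lower in the naïve library (60.0 to 140). Pdk1, which keeps pyruvate from the mitochondrion, was at 35.98 against 233.09 TPM, 6.48-fold lower (5.82 to 7.23). Ldha, which makes lactate, was 2.61-fold lower (2.47 to 2.75), and Slc2a1, a glucose carrier, 3.27-fold lower (3.08 to 3.47).

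Pkm, pyruvate kinase, was among the most abundant genes that fell, at 1216.54 against 2582.02 TPM, 2.12-fold lower (2.08 to 2.17). Gapdh, Tpi1 and Pgam1, enzymes of the same pathway, differed by between 0.01 and 0.49. Slc2a3, another glucose carrier, rose 2.41-fold (2.34 to 2.48) to 754.76 TPM, with Fbp2 and Pfkfb2. Of 61 tested nuclear subunits of oxidative phosphorylation 59 lay between the limits, with a median of 0.07. Cox7a1, a subunit of cytochrome oxidase, rose from 13.86 to 101.26 TPM and Cox6b2 fell from 251.49 to 123.04 TPM, a fall that did not pass the limit after rescaling by the median ratio between the libraries, in FPKM (corrected for length, with no fixed sum) or in CPM (counts scaled by the library total).

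Hypoxia targets fell in 15 of 23 tested and rose in none, with a median of -1.23. Bnip3, which drives mitophagy, was at 9.09 against 141.69 TPM, 15.6-fold lower (12.3 to 20.1), and Egln3, a HIF prolyl hydroxylase, 20.6-fold lower (13.8 to 32.0). Hif1a itself was at 46.89 and 69.81 TPM, between the limits, and Epas1 (HIF2α) was 4.32-fold lower (3.93 to 4.75). Pdk1 and Slc2a1 belong to this list as well as to glycolysis. The oxygen conditions of the cultures were not among the labels used here.

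Among chromatin factors, 29 of 35 tested polycomb and trithorax genes lay between the limits, as did 75.4% of all tested genes, 4 fell and 2 rose, with a median of -0.15. Phc1 fell as given above, Phf19, a PRC2 accessory protein, was at 0.07 TPM (1 read) against 14.10 TPM, and Jarid2, another, was 2.56-fold lower (2.42 to 2.71). Of the 5 epigenetic factors the study followed, Bmi1 rose 2.55-fold (2.08 to 3.12) from 8.99 to 22.89 TPM. Ezh2, Ctcf, Wdr5 and Kdm2b differed by 0.19, -0.03, 0.03 and -0.49.

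**Figure D4:**
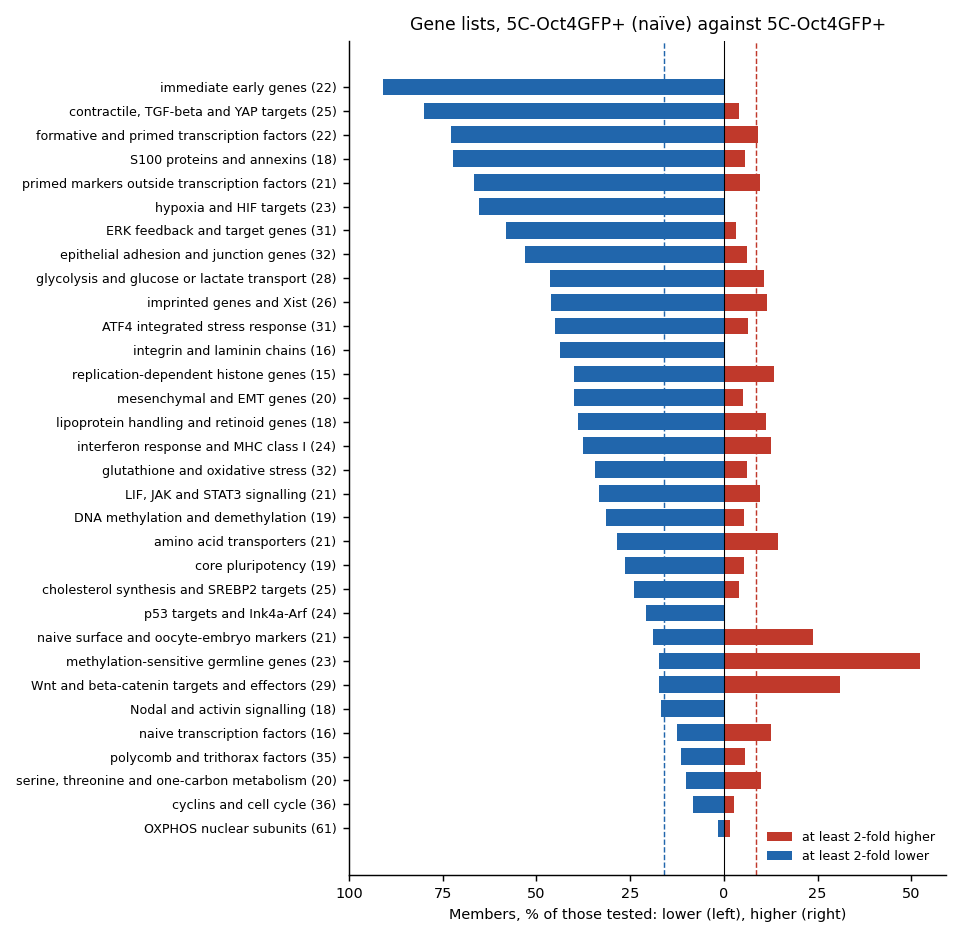
For each gene list with at least 15 tested members, the percent of tested members that were at least 2-fold lower (blue, to the left) and higher (red, to the right) in 5C-Oct4GFP+ (naïve) than in 5C-Oct4GFP+, with the number tested in parentheses. The dashed lines mark the same percents over all tested genes, 16.0 to the left and 8.56 to the right. Immediate early genes lie at one end with 20 of 22 lower, and oxidative phosphorylation subunits at the other with 1 of 61 lower.

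By position, the genes that rose were gathered on chromosome 6. There 98 of 511 tested genes rose, against 8.56% of all tested genes, and the median difference was 0.13 against -0.08. On the X chromosome 15.8% of 398 tested genes rose and 17.1% fell, with a median of -0.23. On the Y chromosome 5 of 10 tested genes rose and none fell, with a median of 1.16, and Uba1y, a ubiquitin-activating enzyme, was at 86.56 against 14.69 TPM. To set aside genes that are off in some libraries, 8519 genes that reached a TPM of 5 in each of the 5 libraries of pluripotent cells (the starting, naïve, primed, mES-Oct4GFP+ and R1 libraries) were taken in order along the chromosomes in windows of 4 Mb. This description was added after the values were seen, and it carries no test.

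Of 372 windows with at least 8 such genes, the 3 with the highest median difference all lay on distal chromosome 6. In the window from 124 to 128 Mb 19 of 33 genes were at least 2-fold higher in the naïve library and 24 were highest there of all 5 libraries, where 4.18% and 12.8% of all 8519 genes were. From Nanog to Cd9, at chr6:122707489-125494791 of GRCm38, 19 of 30 genes passed 2-fold and 26 were highest in the naïve library, with a median difference of 1.25. The median was 1.06 against mES-Oct4GFP+, 1.35 against 5C-Oct4GFP+ (primed) and 1.28 against R1 ESCs-primed. The excess was thus found against each of the other 4 libraries. The ends of this stretch and of those below were chosen with the values known. Their counts and medians are therefore not independent of the values.

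The stretch holds genes of general cell function. Phb2 (prohibitin 2) was at 1051.15 TPM in the naïve library and between 417.26 and 594.89 TPM in the other 4 libraries, and Mlf2 was at 1227.06 TPM and between 366.65 and 437.27 TPM. Cops7a, a subunit of the COP9 signalosome, was at 625.96 TPM and between 179.01 and 221.87 TPM. For each of these the naïve library lay apart from 4 libraries that were near each other. Chd4, Gapdh and Tapbpl, inside the stretch, were not highest in the naïve library.

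The genes just before the stretch did not either. In the 10.7 Mb before Nanog, 1 of 53 genes passed 2-fold and 3 were highest in the naïve library, with a median of -0.03. A further stretch, from Pyroxd1 to Mrps35 at chr6:142345654-147073991, had 9 of 17 genes past 2-fold and 13 highest in the naïve library, with a median of 1.06. Med21 and Ppfibp1 within it were below 0. Among the genes given above, Nanog, Slc2a3, Cd9 and Gapdh lie in the first stretch, and Dppa3 lies just before Nanog. The tables hold RNA only, so the number of copies of this region was not measured, and the part of position in the values of these genes was not tested.

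**Figure D5:**
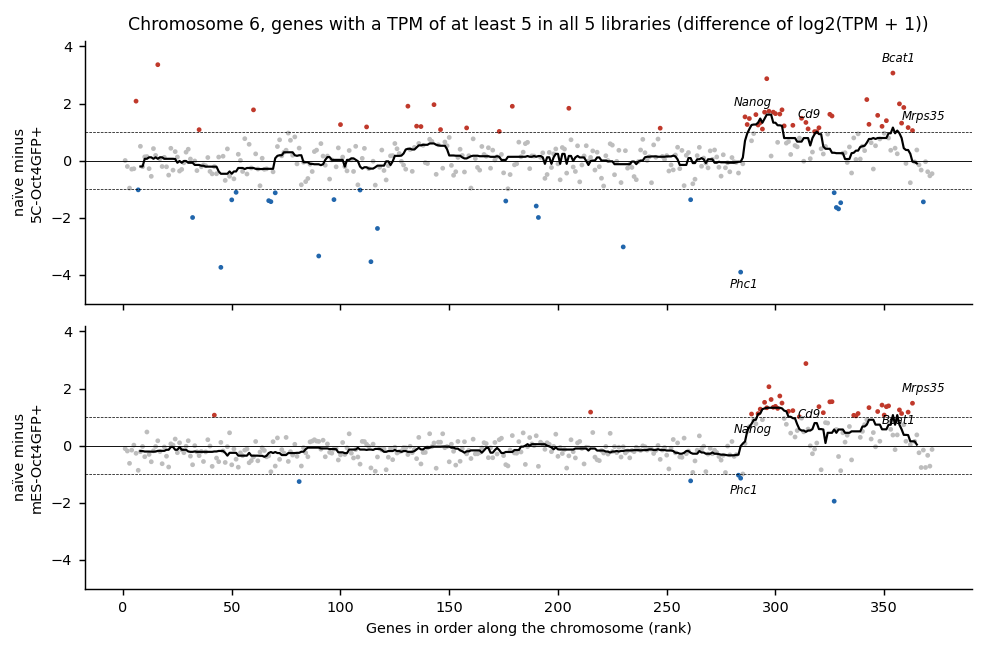
Difference of log2(TPM + 1) of 5C-Oct4GFP+ (naïve) minus 5C-Oct4GFP+ (upper panel) and minus mES-Oct4GFP+ (lower panel) for the 372 genes of chromosome 6 measured in this way, in their order along the chromosome. Red and blue points lie past 2-fold (dashed lines), grey points between, and the black line is the running median of 15 genes. The line stays below 1 up to Phc1, rises above 1 after Nanog in both panels, drops after Cd9, rises again near Bcat1 and ends near 0.

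The gene with the largest rise of all named genes lies in the second stretch. Sox5it, a transcript annotated as sense-intronic within Sox5 at chr6:144670427-144672720 on the minus strand of GRCm38, had 952 reads and 177.77 TPM in the naïve library and no read in any of the other 6 libraries, at least 384-fold higher than in the starting cells. Sox5 itself was at 0.02 TPM in the naïve and 0.29 TPM in the starting library, and whether reads were assigned by strand is not given in the sources used here. Bcat1, the branched-chain aminotransferase and the next gene measured in all 5 libraries, was at 600.24 against 70.68 TPM and at 463.56 TPM in mES-Oct4GFP+ cells. Sox5it thus differed from every other library including mES-Oct4GFP+, while Bcat1 did not.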

How the data were processed

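RNA of 7 libraries, 1 for each kind of cell, was prepared with TruSeq kits and sequenced on a MiSeq, per the labels. The authors mapped the reads with Bowtie and quantified genes with RSEM on mm10, per the labels, and deposited 1 table per library. Expected counts, as deposited, hold the reads that RSEM apportioned to a gene and are not normalised. The deposited TPM values were made by the authors from these with a correction for effective length and a fixed sum per library. The deposited FPKM values have the same correction but are relative to the mapped reads and have no fixed sum. No further normalisation is named in the sources used here.

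From these tables the difference of log2(TPM + 1) between 5C-Oct4GFP+ (naïve) and 5C-Oct4GFP+ was computed for each gene that reached a TPM of 5 in 1 or both libraries, with a limit of 1. With 1 library per condition, no test across samples was possible, and no p-value or spread between cultures is given. Ratios have exact Clopper-Pearson 95% intervals from the expected counts, rounded to whole reads, and these cover the sampling of reads only. Where a library had no read, the ratio is a lower bound against a floor of 3 reads in that library. At totals of 8233480 and 10443952 expected counts, genes with few reads have wide intervals.

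Gene symbols were matched from Ensembl IDs for 28756 of 29267 genes, and genes without a symbol stayed in the counts. Promoter letters came from RefSeq (GRCm38.p6) for 8639 of the 11233 tested genes. Entries were matched by Ensembl ID and, failing that, by symbol, and motifs were searched on both strands. Named genes were the 15 largest differences at each end among genes with a symbol that is not a predicted name. Of the 5 most abundant past the limit in each library, those without a predicted name were named. Up to 4 members of each list with the largest differences were also named. So were members whose role defines the list or which stayed between the limits, and the factors and state genes of the study. The members and lists were chosen with earlier results of these data known. The windows along the chromosomes were added, and the ends of the stretches on chromosome 6 chosen, after the values were seen. Alternatives were a pseudocount of 0.1, a TPM limit of 1 or 20, rescaling by the median ratio, FPKM or CPM (counts scaled by the library total alone) in place of TPM, and an interval wholly past equal values. The values of 1 listed gene are not reported here. The code was tested on simulated data. Python 3.11.15, pandas 2.3.3, NumPy 2.4.6, SciPy 1.17.1 and Matplotlib 3.10.9 were used.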

Additional observations from a re-analysis of the deposited data

How the results depend on the processing

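No paired analysis was possible because each condition has 1 library, and for the same reason no library could be left out. The counts of 962 genes higher and 1800 lower moved most with the TPM limit, to 1486 higher at a limit of 1 and to 543 higher and 891 lower at a limit of 20, by construction, since more or fewer genes were tested. Under the other alternatives the counts stayed within 1.5 times: 826 higher and 1211 lower in FPKM, 1046 and 1857 in CPM, 1008 and 1721 after rescaling by the median ratio, 1042 and 1947 with a pseudocount of 0.1, and 959 and 1789 where the interval also lay wholly past equal values. Genes that were higher made up 34.8% of those past the limit in TPM and 40.5% in FPKM. Of 823 genes in the lists and at the ends, none past the limit changed direction with the pseudocount, rescaling, FPKM or CPM, and their differences moved by more than the read-sampling interval for 126 in CPM, 69 in FPKM, 20 with the pseudocount and 11 after rescaling. Of 100 counts over the lists, 36 moved by over 1.5 times at a TPM limit of 20, 25 in FPKM, 19 in CPM, 12 at a limit of 1, 4 after rescaling, 2 with the pseudocount and 1 with the interval. In FPKM, where 9826 genes were tested, the genes that fell went from 9 to 5 for interferon and MHC, 8 to 4 for fibroblast markers, 8 to 5 for mesenchymal genes, 7 to 4 for collagens and for the insulin and IGF axis, 6 to 3 for cholesterol synthesis and for histones, 6 to 2 for FGF genes, 5 to 3 for trophoblast genes and 2 to 0 for neural genes. The genes that rose went from 7 to 4 for mesendoderm, from 2 to 0 for formative and primed factors and from 2 to 4 for naïve factors. In CPM the naïve factors that rose also went from 2 to 4, the collagens from 0 to 3, the amino acid transporters from 3 to 6, the Hox genes from 3 to 5 and the insulin and IGF axis from 0 to 2, and the histones that fell from 6 to 1, the cell cycle genes from 3 to 1 and the BMP genes from 3 to 5. The single riser of the ERK list became 3 after rescaling and with the pseudocount, 2 in FPKM and 4 in CPM, and the single fall among subunits of oxidative phosphorylation was lost after rescaling, in FPKM and in CPM. Reads limit genes seen 1 to 8 times in a library, such as Fgf5, Magea8 and Fos.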

Other observations

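The counts of this section stand beside 16.0% lower and 8.56% higher among all tested genes. Genes of antigen presentation and interferon response moved in both directions. Of 24 tested 9 were lower and 3 higher in the naïve library, with a median difference of -0.67. B2m, the light chain of MHC class I, was at 13.72 against 60.34 TPM in the starting library, 4.40-fold lower (95% interval 3.25 to 6.05), Tap1, the peptide transporter, 7.86-fold lower (5.30 to 12.1), and Bst2 (tetherin) 4.53-fold lower (3.93 to 5.24). Oas1a, Irf9 and Xaf1, also of the interferon response, were 2.88-fold (2.51 to 3.32), 2.70-fold (2.26 to 3.25) and 2.67-fold (2.22 to 3.22) higher. In the insulin and IGF axis 7 of 14 tested were lower and none higher, led by the binding proteins Igfbp7, at 2.63 against 106.70 TPM, and Igfbp2, at 148.09 against 830.92 TPM. Ckb, the brain creatine kinase, was at 1369.91 against 136.41 TPM, with an interval of the ratio of 9.43 to 10.7, and Fkbp4, a co-chaperone of HSP90, at 2296.33 against 775.31 TPM.

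Genes of the ATF4 stress response were lower in 14 of 31 tested and higher in 2. Asns (asparagine synthetase) was at 656.68 against 153.97 TPM, 4.26-fold higher (4.03 to 4.52), while Chac1, which degrades glutathione, was 5.70-fold lower (3.96 to 8.42) and Atf4 itself lay between the limits at 302.66 and 417.01 TPM. Of 21 tested amino acid transporters 6 were lower and 3 higher. Slc38a5, a glutamine carrier, had no read in the naïve library against 37.90 TPM, and Slc38a4, an imprinted carrier, was 6.41-fold higher (5.81 to 7.09). In the glutathione list 11 of 32 tested were lower, among them Gsto1 and Cat, and Gss (glutathione synthetase) was 8.38-fold higher (7.25 to 9.72). Of 25 genes of cholesterol synthesis and SREBP2 output 6 were lower and Ebp was higher, with a median of -0.83. Lpl, a lipase of lipoproteins, was 10.1-fold higher (8.17 to 12.7).

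Of 36 tested cell cycle genes 32 lay between the limits, with a median of 0.15, and of 24 p53 targets 19 did, against 75.4% of all tested genes, with Trp53 at 422.73 and 392.05 TPM and Cdkn1a, the p21 inhibitor, at 241.77 and 134.84 TPM. Of 39 Hox genes 36 were below a TPM of 5 in both libraries, and the other 3, Hoxb9, Hoxc12 and Hoxc13, were higher in the naïve library, at 9.95 to 11.98 TPM, and at 12.23 to 15.72 TPM in mES-Oct4GFP+ cells. That all tested Hox genes were higher depends on the TPM limit. At a limit of 1, 6 were higher and 2 lower, and at a limit of 20, 0 were higher. Integrin and laminin chains were lower in 7 of 16 tested, among them Itgb1, the shared β1 chain, at 45.60 against 160.97 TPM. Tubb3 and Nefm, markers of neurons, were 4.25-fold (3.82 to 4.73) and 10.2-fold (8.01 to 13.4) higher. Sox21 and Map2, of the same neural list, were lower, at 1.79 against 6.46 TPM and 2.45 against 7.23 TPM. Stmn2, Nes, Ncam1 and Nefl lay between the limits, and the other 17 of 25 neural genes were below a TPM of 5 in both libraries.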
